A study of Homo sapiens with 56 samples.

Results

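Z138 is an established human mantle cell lymphoma line, and the response described here is that of its transcriptome to IBR. IBR is read as ibrutinib, since the study's design text names a BTK inhibitor. The comparison took every Z138 library labelled IBR (2) or IBR_CLF (2) against every Z138 library labelled CON (2) or CLF (2). These are 8 of the 56 RNA-seq libraries of the study, which covers 4 mantle cell lymphoma cultures, and 8 of its 13 Z138 libraries. CON is taken as untreated, IBR as the BTK inhibitor alone, CLF as an agent the labels do not explain, and IBR_CLF as both together. Dose, time of exposure and viability are not among the labels, and nothing says that the libraries came from separate cultures, so p-values measure only the spread between these libraries. Each treatment held 1 library with a plain name and 1 whose name ended in A. Plain and A are used below as parts of library names, and each IBR library is paired with the library of the same CLF state and the same suffix. Each library held 14.5 to 18.9 M reads, as recovered from the steps between its low values, and 3 reads were worth 0.158 to 0.208 CPM, the depth-scaled count unit used throughout.

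Ibrutinib binds covalently to BTK, the kinase that passes the signal of the B-cell receptor to phospholipase C gamma, NF-kB and ERK, and mantle cell lymphoma cells often depend on that signal. MYC, the immediate early EGR genes and the chemokines CCL3 and CCL4 are among the genes this receptor induces. NRF2 is the transcription factor of the oxidant and electrophile response: KEAP1 holds it down by sending it to degradation, and once released it raises HMOX1, NQO1, the ferritins and the glutathione and thioredoxin enzymes. TFEB and TFE3 do the same for lysosome and autophagy genes.

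The 8 libraries did not fall cleanly into those with and without IBR. IBR_CLF plain correlated with CLF plain at r = 0.970 and with CON plain at r = 0.967 over the tested genes, but with IBR plain, IBR A and IBR_CLF A at only 0.917, 0.928 and 0.915. These are descriptions across genes, which are not independent replicates. In its pair, 1167 genes (8.59% of 13581) differed by more than 1 on the log2 scale, against 3659, 3817 and 2556 genes in the pairs of IBR plain, IBR A and IBR_CLF A. At the other end, IBR A and IBR_CLF A were the most alike of all 28 pairs (r = 0.992), and their recovered reads differed by a chi-square of 9.22 per degree of freedom, against 25.1 to 394 for the other 27 pairs. That is as close as 2 pairs of JEKO-1 libraries of the same name and treatment that differ only in a final a (10.1 and 9.50). The JEKO-1 pairs share a treatment label and were averaged for the comparison of the lines below, whereas IBR A and IBR_CLF A carry different labels and were kept as 2 samples. Whether the labels of IBR_CLF plain, IBR A and IBR_CLF A are right was not tested, and every IBR value below rests on them. CLF A also lay closer to IBR A (r = 0.947) than CON A did (0.909). The share of reads on mitochondrially encoded genes was 5.58% to 8.62% in the IBR libraries and 3.43% to 3.92% in the others, with means of 6.57% ± 1.38 and 3.66% ± 0.245 (SD, n = 4 each; two-sided exact permutation test, p = 0.0286, the smallest that 70 assignments allow). The share was higher by 4.70, 2.15, 2.67 and 2.12 points in the IBR plain, IBR A, IBR_CLF plain and IBR_CLF A pairs, and with labels exchanged only within these 4 pairs the exact p was 0.125, the smallest that 16 assignments allow, so it did not pass there.

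**Figure D1:**
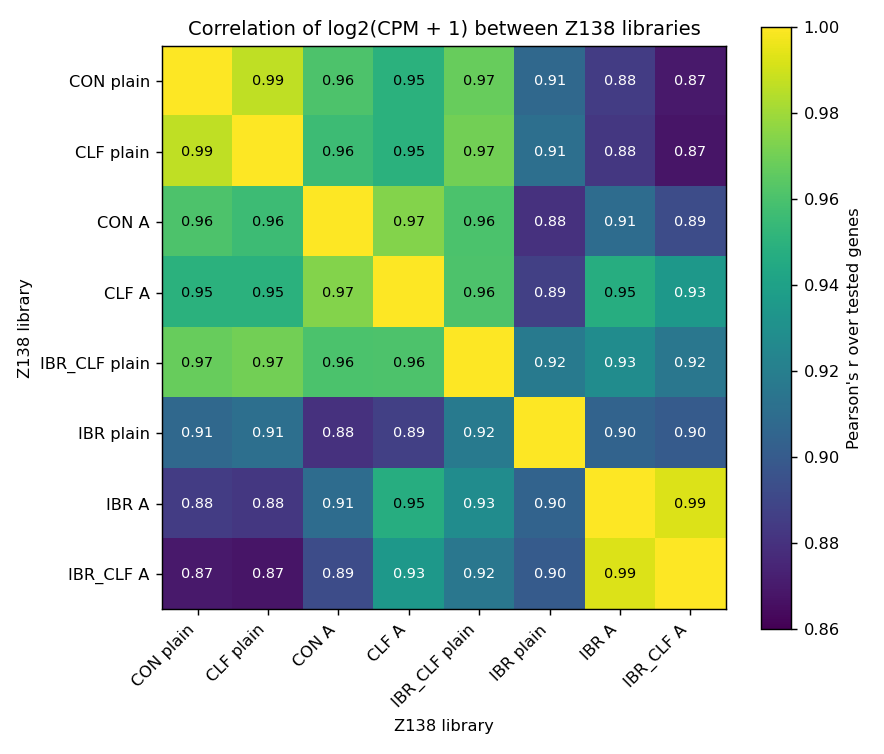
Pearson's r of log2(CPM + 1) between each 2 of the 8 Z138 libraries, on a colour scale from 0.86 to 1, with the value printed in each cell. IBR_CLF plain is brighter toward CON plain and CLF plain (0.97 each) than toward the other 3 IBR libraries (0.92 to 0.93), and IBR A with IBR_CLF A gives 0.99.

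The cells kept the markers of a B-cell lymphoma line. Of 10 mantle cell markers, 9 passed the filter on low values. MS4A1 (CD20) read 363 to 845 CPM and CD79A 206 to 324 CPM over the 8 libraries, with overlapping groups, and SOX11 read 299 to 1182 CPM. CD5 was near 0, with at most 0.211 CPM in any library. Of 7 T-cell markers, CD3G (at most 10.1 CPM) and CD4 (at most 4.49 CPM) were measurable and CD2 was at 0 throughout, and the summed T-cell list ran from 2.70 to 9.44 CPM with IBR and from 6.62 to 16.3 CPM without. The 4 myeloid and 3 erythroid markers in the table each stayed under 1 CPM, and of 6 stromal and epithelial markers COL1A1 stood out, at 15.0 to 71.9 CPM and a called difference of -0.79. The part of these low-level genes in the results was not tested.

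Across the transcriptome, limma on log2(CPM + 1) with CLF and suffix as blocks called 1619 of 13581 genes (11.9%) at a Benjamini-Hochberg adjusted p under 0.05. Of these, 742 (5.46% of those tested) were higher with IBR and 877 (6.46%) lower. The median log2 difference over all tested genes was 0.06, and the median size of a called change was 1.17. In 1597 of the 1619 genes all 4 pairs had the same sign, and in 1016 the groups did not overlap. Both counts are in part fixed, since the genes were chosen from the same pairs. Over all tested genes, 19.5% were higher and 18.7% lower in all 4 pairs. The 4 IBR libraries lay above the other 4 in 6.13% of tested genes and below them in 8.59%. Adjusted p-values of called genes ran from 0.0251 up to the threshold, and the count moved with the samples taken. It was 0 without the suffix block, where 3180 genes had an unadjusted p under 0.05 and all 1619 kept their sign. It was 1 without CON plain, 2 without CLF A and 0 without each of CON A, CLF plain, IBR A and IBR_CLF A, while it was 3956 (29.4% of 13473 tested; 1694 higher, 12.6%, and 2262 lower, 16.8%) without IBR_CLF plain. Without both IBR A and IBR_CLF A, 0 genes were called and 1140 had an unadjusted p under 0.05. The fit without IBR_CLF plain is given beside each gene group below, as an addition that was chosen with that library's position known.

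Genes of the NRF2 response gave several of the largest rises. Of 25 tested NRF2 targets and regulators, 10 rose and 0 fell (median log2 difference 0.84, against 0.06 over all genes), and 19 rose without IBR_CLF plain. HMOX1 (heme oxygenase 1, ENSG00000100292, chr22:35380361-35394215, hg38) breaks down heme. HMOX1 read 4.18, 1.02, 3.60 and 10.4 CPM in CON plain, CON A, CLF plain and CLF A, and 1004, 269, 10.6 and 315 CPM in IBR plain, IBR A, IBR_CLF plain and IBR_CLF A, the order kept for all values below. Every IBR library lay above every library without IBR, but IBR_CLF plain only just, and the fitted rise was 5.20 ± 1.18 (log2, SE; adjusted p = 0.0359). NQO1, a quinone reductase, had the more even pattern. Its levels were 8.80, 3.47, 11.6 and 19.6 CPM without IBR and 77.6, 151, 41.9 and 151 CPM with IBR. Its rise was 3.19 ± 0.50 (log2, SE; adjusted p = 0.0292), and each IBR library again exceeded all 4 others. OSGIN1, which is induced by oxidative stress, rose by 4.07 ± 0.90 (log2, SE; adjusted p = 0.0347). SRXN1, which restores oxidised peroxiredoxins, read 10.6, 15.9, 13.3 and 17.4 CPM without IBR and 109.8, 131, 20.3 and 142 CPM with IBR and rose by 2.44 ± 0.45 (log2, SE; adjusted p = 0.0292). TXNRD1 (thioredoxin reductase, 0.89 ± 0.23), PGD of the pentose phosphate pathway (0.84) and MAFG, a partner of NRF2 on DNA (1.5), rose less steeply. The cystine carrier SLC7A11 and the glutathione synthesis subunits GCLM and GCLC had differences of 1.69, 1.27 and 0.84 and passed only without IBR_CLF plain. The regulators themselves were not called at the mRNA level: NFE2L2, which encodes NRF2, read 244, 126, 344 and 155 CPM without IBR and 223, 169.5, 259.7 and 166 CPM with IBR (adjusted p = 0.989), and KEAP1 differed by 0.39.

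**Figure D2:**
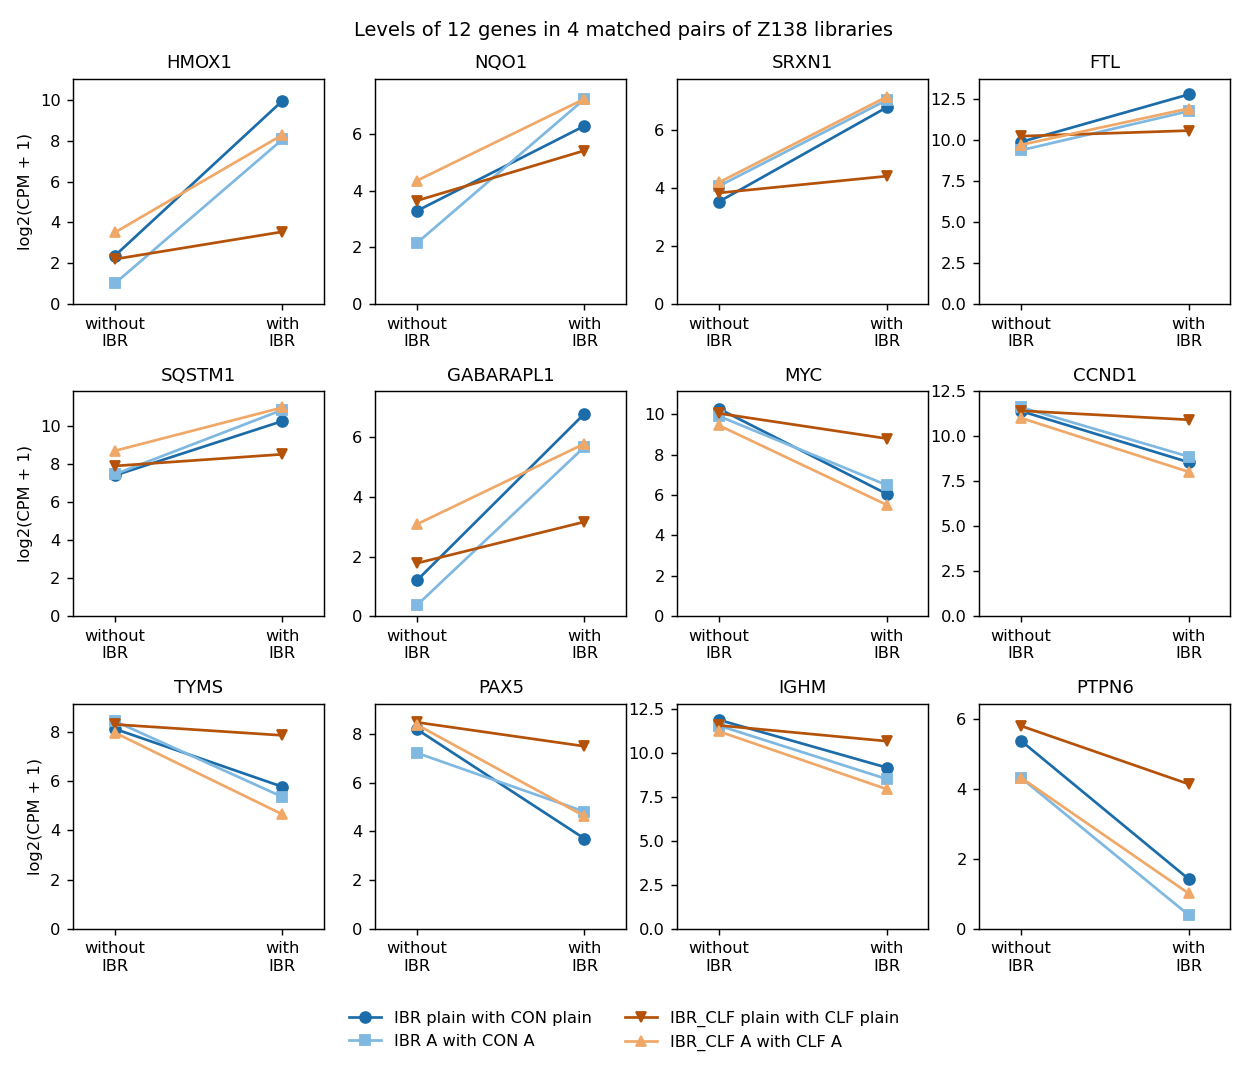
log2(CPM + 1) of 12 genes in the 8 Z138 libraries, each line joining an IBR library (right) to the library of the same CLF state and suffix without IBR (left). In the first 6 panels, read row by row, all 4 lines go up and in the other 6 all 4 go down, and the line of IBR_CLF plain is the shallowest in every panel, as for HMOX1 (3.60 to 10.6 CPM).

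LUCAT1, a long non-coding RNA gene on chromosome 5, belonged to none of the lists but was among the 12 largest rises, and its promoter is shown because it holds the full NRF2-type element. The libraries without IBR held 0.375, 0.538, 0.793 and 3.86 CPM and those with IBR 14.04, 20.4, 6.50 and 24.8 CPM. It rose by 2.93 ± 0.39 (log2, SE; adjusted p = 0.0292). The 250 bases before its RefSeq start (GRCh38.p14, chr5:91314403-91314652, minus strand) follow, with the match in capitals, which begins 54 bases before the start.
LUCAT1: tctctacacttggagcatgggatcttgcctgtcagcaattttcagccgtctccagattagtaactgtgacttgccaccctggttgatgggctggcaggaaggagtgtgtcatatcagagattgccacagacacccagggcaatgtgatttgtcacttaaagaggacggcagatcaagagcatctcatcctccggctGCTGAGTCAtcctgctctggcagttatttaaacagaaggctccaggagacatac
The letters GCTGAGTCA, searched on both strands, were found in 0.367% of the 10345 tested genes with a RefSeq promoter and in 0.465% of all 27305 promoters, but in 0 of the 18 NRF2 list members that had one. The looser core TGACNNNGC, which GCTGAGTCA also matches on the other strand, was in 3 of those 18 (16.7%), against 12.4% of tested genes. It was not particular to that list. S-phase genes, a list that fell, held it in 5 of 26 members (19.2%), and lysosome and autophagy genes in 4 of 16 (25%). Mitosis genes held it in 3 of 25 (12%), iron genes in 1 of 13, and MYC and ribosome biogenesis genes in 1 of 20. More distant elements were not searched.

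Of 16 tested iron and heme genes, 4 rose and 0 fell (median 0.19): HMOX1, the ferritin chains FTL and FTH1, and the heme transporter SLC48A1. Without IBR_CLF plain 4 rose and 2 fell. HMOX1 is counted in the NRF2 list too, and the ferritins are among the genes NRF2 raises, so the iron list is not a separate result. FTL is the light chain of ferritin, the iron store. Without IBR it read 935, 658, 1192 and 827 CPM, and with IBR 6937, 3424, 1506 and 3830.0 CPM. It rose by 1.95 ± 0.45 (log2, SE; adjusted p = 0.0359). FTH1 rose by 1.75 ± 0.41 (log2, SE; adjusted p = 0.0381), and its lowest IBR library, IBR_CLF plain, exceeded the highest other library at 1519.6 against 1223 CPM. The transferrin receptor TFRC took another course: it read 248, 251, 1021 and 836 CPM without IBR and 95.7, 207, 614 and 175 CPM with IBR, with CLF plain and CLF A the highest, and its difference of -1.16 ± 0.40 passed only without IBR_CLF plain.

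Among lysosome and autophagy genes, 10 of 23 tested rose and 0 fell (median 0.78; 17 of 23 without IBR_CLF plain). GABARAPL1, an ATG8-family protein of the autophagosome, was the steepest. Its levels were 1.31, 0.299, 2.44 and 7.51 CPM without IBR and 109.6, 50.2, 7.98 and 54.1 CPM with IBR. Its rise was 3.74 ± 0.81 (log2, SE; adjusted p = 0.034), and CLF A (7.51 CPM) came within reach of IBR_CLF plain (7.98). SQSTM1 (p62) carries cargo to the autophagosome and binds KEAP1. The libraries without IBR held 170.2, 178, 240.3 and 418 CPM and those with IBR 1237, 1862, 368 and 2031 CPM. CLF A lay above IBR_CLF plain, so the groups overlapped, and the rise was 2.28 ± 0.45 (log2, SE; adjusted p = 0.0299). The transcription factor TFE3 rose by 1.67 ± 0.35 (log2, SE; adjusted p = 0.0329), whereas TFEB differed by -0.05 and did not pass. The calcium channel MCOLN1 (1.51), the kinase ULK1 (1.21), the protease TPP1 (1.12), FLCN (0.96), HEXA (0.83), LAMP2 (0.59) and GPNMB (1.75) made up the rest. Cathepsin D (CTSD) read 85.2, 53.1, 85.8 and 92.5 CPM without IBR and 854, 394, 74.3 and 443 CPM with IBR; it was high in 3 IBR libraries but lower in IBR_CLF plain than in CLF plain, and passed only without that library.

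Other stress responses were less regular. In the heat shock list 1 of 24 rose (4.17%, near the 5.46% of all tested genes called higher). This was DNAJB4, by 2.27 ± 0.40 (log2, SE; adjusted p = 0.0292). The list median was 0.79, and 14 rose without IBR_CLF plain, where 12.6% of all tested genes did. HSPA6, an inducible HSP70, read 0.874, 3.11, 1.62 and 69.4 CPM without IBR and 526, 248, 4.63 and 329.8 CPM with IBR and differed by 4.35 ± 1.34 (adjusted p = 0.0655). IBR plain held the highest level, CLF A lay above IBR_CLF plain, and the list summed to 58829 CPM in IBR plain against 10089 to 19141 CPM in the other 3 IBR libraries and 8146 to 11754 CPM without IBR. Of 33 ATF4 and tRNA synthetase genes only DDIT3 (CHOP) rose, by 1.30 ± 0.35 (log2, SE; adjusted p = 0.0477), and 6 did without IBR_CLF plain. With all 8 libraries that share, 3.03%, was no higher than the 5.46% over all tested genes. None of 21 unfolded protein response genes was called, and HSPA5 (BiP) differed by 0.38 ± 0.30. Of 23 p53 targets 0 were called. CDKN1A and MDM2 differed by -0.33 and 0.08, while 6 of the list rose and 1 fell without IBR_CLF plain, among them GDF15 (3.75 there). Metallothioneins and zinc genes gave 0 calls among 5.

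Among the genes that fell, MYC was one of the largest. Without IBR it read 1227, 954, 1051 and 694 CPM, and with IBR 65.9, 89.3, 444 and 44.9 CPM. The 4 libraries with IBR lay below all others, with IBR_CLF plain still at 444 CPM, and MYC fell by 3.19 ± 0.55 (log2, SE; adjusted p = 0.0292), or 9.14-fold on that scale. Of the 26 tested genes of the MYC and ribosome biogenesis list, 20 fell and 0 rose (median -1.40), and 25 fell without IBR_CLF plain. They included NOLC1 (-1.69) and NCL (-1.55) of the nucleolus, BOP1 (-1.76) and RRP12 (-1.65) of ribosome assembly, the snoRNP pseudouridine synthase DKC1 (-1.71), the polyamine enzymes ODC1 (-1.44) and SRM (-1.65), and CAD (-1.55), which starts pyrimidine synthesis. HSPD1 was the member above 0, at 0.45. Glycolysis genes fell in part, 9 of 27 with 1 rising (median -0.68). HK2, the first enzyme of the pathway, read 182, 96.97, 103 and 103 CPM without IBR and 3.72, 14.4, 38.8 and 11.7 CPM with IBR, which leaves a clear gap between the groups, and fell by 3.09 ± 0.55 (log2, SE; adjusted p = 0.0292). LDHA fell by 2.23 ± 0.39 (log2, SE; adjusted p = 0.0292). ENO1, TPI1, PGAM1, PGK1, GPI and PFKL fell by less, while the glucose carrier SLC2A3 rose by 1.17 ± 0.31 (log2, SE; adjusted p = 0.0481).

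Cell-cycle genes fell in number. Of 30 mitosis genes 22 fell and 0 rose (median -1.46), of 30 replication and S-phase genes 22 fell and 0 rose (median -1.27), and without IBR_CLF plain all 30 of each did. In bulk RNA, fewer cycling cells and less of these mRNAs per cell cannot be told apart. BIRC5 is a member of the mitosis and apoptosis lists. RRM2, the small subunit of ribonucleotide reductase, read 174, 232, 308 and 314 CPM without IBR and 15.7, 18.000, 175 and 9.90 CPM with IBR and fell by 3.17 ± 0.66 (log2, SE; adjusted p = 0.0318). IBR_CLF plain (175 CPM) lay just above CON plain (174 CPM), so the groups overlapped. TYMS, which makes thymidylate, showed a like layout with no overlap. Its levels were 276, 343, 313 and 248 CPM without IBR and 53.4, 39.9, 230.1 and 24.04 CPM with IBR. It fell by 2.29 ± 0.51 (log2, SE; adjusted p = 0.0345). The mitotic kinase PLK1 read 144, 104, 107 and 96.2 CPM without IBR and 29.99, 9.37, 70.04 and 9.64 CPM with IBR, with no overlap, and fell by 2.34 ± 0.41 (log2, SE; adjusted p = 0.0292). The kinesin KIF20A read 56.6, 50.04, 40.7 and 61.7 CPM without IBR and 2.88, 5.79, 35.5 and 6.98 CPM with IBR and fell by 2.49 ± 0.54 (log2, SE; adjusted p = 0.034). UHRF1, which keeps DNA methylation through replication, was among the 12 largest falls at 2.93 ± 0.61 (log2, SE; adjusted p = 0.0321). Summed over the list, mitosis genes gave 732 to 1125 CPM in IBR plain, IBR A and IBR_CLF A, 3287 CPM in IBR_CLF plain and 3451 to 4124 CPM without IBR. Among G1 regulators 4 of 11 fell (36.4%, against 6.46% of all tested genes). CCND1 (cyclin D1), the gene that the hallmark translocation of this lymphoma activates, read 2709, 3141, 2749.7 and 2078 CPM without IBR and 378, 470.1, 1947 and 261 CPM with IBR; it fell by 2.27 ± 0.52 (log2, SE; adjusted p = 0.036), and again IBR_CLF plain lay just under the lowest library without IBR. E2F2, RB1 and CDK4 fell by 1.34, 0.82 and 0.62.

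Promoters of some genes that fell are shown because the S-phase and mitosis lists held the letters of cell-cycle motifs more often than all tested genes did. The 877 genes called lower were not searched as a set. The shares therefore describe the chosen lists and not the fall with IBR. E2F motifs (TTTGGCGC or TTTCCCGC, both strands) were in 11 of 26 S-phase members with a RefSeq promoter (42.3%) and in 9 of the 18 that were called (50%), against 3.18% of 10345 tested genes and 1.96% of 27305 promoters of the same length. CCAAT, likewise on both strands, was in 20 of 25 mitosis members (80.0%) and 16 of the 18 called (88.9%), against 35.7% and 33.0%. The first 4 sequences show E2F matches in capitals and the last 3 show CCAAT or its complement ATTGG, all 250 bases before the RefSeq start in GRCh38.p14.
TYMS, chr18:657403-657652, plus strand: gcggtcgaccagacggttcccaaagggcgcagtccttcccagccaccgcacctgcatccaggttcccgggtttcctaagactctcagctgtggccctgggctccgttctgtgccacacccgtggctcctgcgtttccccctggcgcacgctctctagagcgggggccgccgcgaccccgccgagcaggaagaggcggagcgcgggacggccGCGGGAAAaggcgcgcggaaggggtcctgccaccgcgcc
MCM6, chr2:135876444-135876693, minus strand: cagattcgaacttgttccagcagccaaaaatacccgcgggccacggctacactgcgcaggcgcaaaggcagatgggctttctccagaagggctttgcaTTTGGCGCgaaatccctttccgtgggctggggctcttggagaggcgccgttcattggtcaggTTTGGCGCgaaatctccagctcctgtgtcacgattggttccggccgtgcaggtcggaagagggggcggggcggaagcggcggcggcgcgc
PCNA, chr20:5126623-5126872, minus strand: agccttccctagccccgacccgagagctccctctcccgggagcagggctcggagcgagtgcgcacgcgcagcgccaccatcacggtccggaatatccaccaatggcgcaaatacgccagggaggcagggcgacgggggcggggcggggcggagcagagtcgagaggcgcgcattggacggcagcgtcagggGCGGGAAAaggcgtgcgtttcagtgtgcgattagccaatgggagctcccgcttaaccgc
UHRF1, chr19:4909251-4909500, plus strand: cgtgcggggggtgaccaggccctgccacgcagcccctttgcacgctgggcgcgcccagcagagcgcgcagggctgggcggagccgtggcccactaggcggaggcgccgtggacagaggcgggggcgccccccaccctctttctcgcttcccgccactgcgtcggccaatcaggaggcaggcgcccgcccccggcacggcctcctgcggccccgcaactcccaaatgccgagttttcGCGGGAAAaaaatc
PLK1, chr16:23678639-23678888, plus strand: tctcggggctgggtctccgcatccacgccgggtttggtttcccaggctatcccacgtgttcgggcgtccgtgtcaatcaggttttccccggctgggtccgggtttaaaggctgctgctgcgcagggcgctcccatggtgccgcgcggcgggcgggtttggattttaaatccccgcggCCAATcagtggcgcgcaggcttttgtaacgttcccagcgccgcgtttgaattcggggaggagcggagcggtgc
KIF20A, chr5:138178862-138179111, plus strand: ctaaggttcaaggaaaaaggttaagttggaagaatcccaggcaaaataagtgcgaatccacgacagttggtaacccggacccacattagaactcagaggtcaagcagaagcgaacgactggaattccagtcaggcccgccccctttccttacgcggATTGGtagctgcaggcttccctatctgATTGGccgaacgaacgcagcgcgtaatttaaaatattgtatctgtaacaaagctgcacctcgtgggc
CCNB2, chr15:59104896-59105145, plus strand: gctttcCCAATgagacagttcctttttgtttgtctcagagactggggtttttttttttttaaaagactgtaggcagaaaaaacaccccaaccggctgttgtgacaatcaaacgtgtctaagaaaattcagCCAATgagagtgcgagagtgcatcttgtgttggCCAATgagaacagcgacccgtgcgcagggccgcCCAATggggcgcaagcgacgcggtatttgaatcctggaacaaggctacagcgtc
MCM6, a subunit of the replicative helicase, holds 2 E2F matches, at 152 and 90 bases before the start, and fell by 1.54 ± 0.29 (log2, SE; adjusted p = 0.0292). PCNA, the sliding clamp, holds 1 at 59 bases and fell by 1.48 ± 0.39 (log2, SE; adjusted p = 0.0454). CCNB2 (cyclin B2) holds 4 CCAAT letters and KIF20A 2, and CCNB2 fell by 1.15 ± 0.30 (log2, SE; adjusted p = 0.045). The MYC E-box CACGTG was in 4 of 20 MYC and ribosome biogenesis members (20.0%), against 9.02% of tested genes. It was not particular to that list. Lysosome and autophagy genes, a list that rose, held it in 5 of 16 members (31.25%), and mitosis genes in 4 of 25 (16%). The NRF2 list held it in 1 of 18 and the iron list in 0 of 13. A match is a run of letters and no measured binding.

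Of 33 tested components of B-cell receptor signalling, 10 fell, 0 rose and 23 were not called (median -0.79). The share that fell was 30.3%, against 6.46% of all tested genes. Without IBR_CLF plain 16 fell, where 16.8% of all tested genes did. BTK itself, the target of ibrutinib, read 114, 59.4, 117 and 103 CPM without IBR and 38.2, 28.6, 99.8 and 25.3 CPM with IBR; IBR_CLF plain lay within the range without IBR, and the fall was 1.20 ± 0.28 (log2, SE; adjusted p = 0.0363). PTPN6 (SHP-1), a phosphatase that restrains the receptor, gave one of the largest falls. The libraries without IBR held 40.1, 18.8, 54.3 and 18.8 CPM and those with IBR 1.68, 0.316, 16.5 and 1.02 CPM. It fell by 3.20 ± 0.44 (log2, SE; adjusted p = 0.0292). CD72, CD79B, CD81, VAV2, PRKCB, PIK3AP1 and NFATC1 fell as well, by 0.79 to 1.77 on the log2 scale. SYK and LYN, at -0.79 and -0.92, passed only without IBR_CLF plain, and CD79A differed by -0.03.

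Of 26 tested genes induced by the receptor and by ERK, 8 fell and 0 rose (median -0.95; 12 fell and 1 rose without IBR_CLF plain). Besides MYC these were the immediate early factors EGR2 and EGR3, JUNB, the phosphatase DUSP2, the activation marker CD83 and the chemokines CCL3 and CCL4. EGR3 read 9.18, 0.837, 22.5 and 6.62 CPM without IBR and 0, 0, 1.61 and 0.508 CPM with IBR and fell by 2.43 ± 0.40 (log2, SE; adjusted p = 0.0292); CON A was itself near the level of the IBR libraries. EGR1 read 70.7, 5.44, 119.7 and 36.2 CPM without IBR and 4.56, 2.79, 145 and 3.81 CPM with IBR: its highest level was in IBR_CLF plain, and its difference of -1.78 ± 0.62 (adjusted p = 0.0896) did not pass. FOS, IER3 and RGS1 had positive differences (0.68, 0.75 and 0.75) that were not called. CCL3 and CCL4 have near-identical gene copies, so their split of reads is uncertain. Without IBR_CLF plain 5 of 22 NF-kB genes fell and 2 rose, against 16.8% and 12.6% of all tested genes. With all 8 libraries 2 of 22 fell and 1 rose. These shares are near the 6.46% and 5.46% over all tested genes, so the counts say nothing particular of this list. Its 3 called members were as follows: IL10 read 18.8, 10.9, 10.9 and 10.2 CPM without IBR and 0, 0.526, 2.61 and 0.317 CPM with IBR and fell by 3.02 ± 0.40 (log2, SE; adjusted p = 0.0292), CXCR5 fell by 1.72 ± 0.33 (log2, SE; adjusted p = 0.0294), and CFLAR, which encodes the caspase-8 inhibitor c-FLIP, rose by 1.14 ± 0.24 (log2, SE; adjusted p = 0.0317). NFKBIA and TNFAIP3, the feedback inhibitors, differed by -0.07 and -0.44.

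Of 20 tested transcription factors of B-cell identity, 6 fell, 1 rose and 13 were not called (median -0.83; 12 fell without IBR_CLF plain). PAX5, the factor that commits cells to the B lineage, was the steepest of them. Without IBR it read 289, 148, 355 and 330.5 CPM, and with IBR 11.996, 27.000, 179 and 23.7 CPM. It fell by 2.91 ± 0.55 (log2, SE; adjusted p = 0.0292), with IBR_CLF plain (179 CPM) above CON A (148 CPM). IKZF1, SPI1, POU2AF1, BACH2 and IRF4 fell by 1.23 to 1.78, while SOX11 rose by 0.94 ± 0.20 (log2, SE; adjusted p = 0.0339). The immunoglobulin list, which also holds CD74, had the lowest median of any list, -2.11, with 6 of 9 members falling, CD74 among them. IGHM read 3768, 3011, 3041 and 2397 CPM without IBR and 576, 367, 1636 and 246 CPM with IBR and fell by 2.48 ± 0.42 (log2, SE; adjusted p = 0.0292). IGHD fell by 3.48 ± 0.53 (log2, SE; adjusted p = 0.0292); the light-chain genes IGLC2 and IGLC3, near-identical copies whose reads may be split wrongly, and the J chain fell too, but IGKC differed by -0.31 and was not called. In MHC class II presentation 9 of 12 genes fell (median -1.57). The invariant chain CD74 read 2817, 3228, 2231 and 2215 CPM without IBR and 527, 865, 1360.0 and 725 CPM with IBR and fell by 1.66 ± 0.34 (log2, SE; adjusted p = 0.0307). CIITA, the master regulator of the class, read 191, 298, 137 and 193 CPM without IBR and 3.70, 54.3, 126 and 39.97 CPM with IBR; its difference of -2.54 ± 0.80 (adjusted p = 0.0701) passed only without IBR_CLF plain. Of 19 surface antigens 5 fell (26.3%, against 6.46% of all tested genes) and 0 rose. Those that fell included FCER2 (CD23, -1.78), TNFRSF13B (TACI, -2.14) and TNFRSF17 (BCMA, -0.72), while CD20, CD37 and CD40 were not called (0.07, 0.57 and 0.22). Of 14 homing genes 21.4% were called, against 11.9% of all tested genes. CXCR5 and GPR183 (-2.31) fell, and SELPLG, the selectin ligand, rose by 1.44 ± 0.34 (log2, SE; adjusted p = 0.0369). CXCR4 had a difference of -1.32 that passed only without IBR_CLF plain. CD74 is counted in both the class II and the immunoglobulin list.

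**Figure D3:**
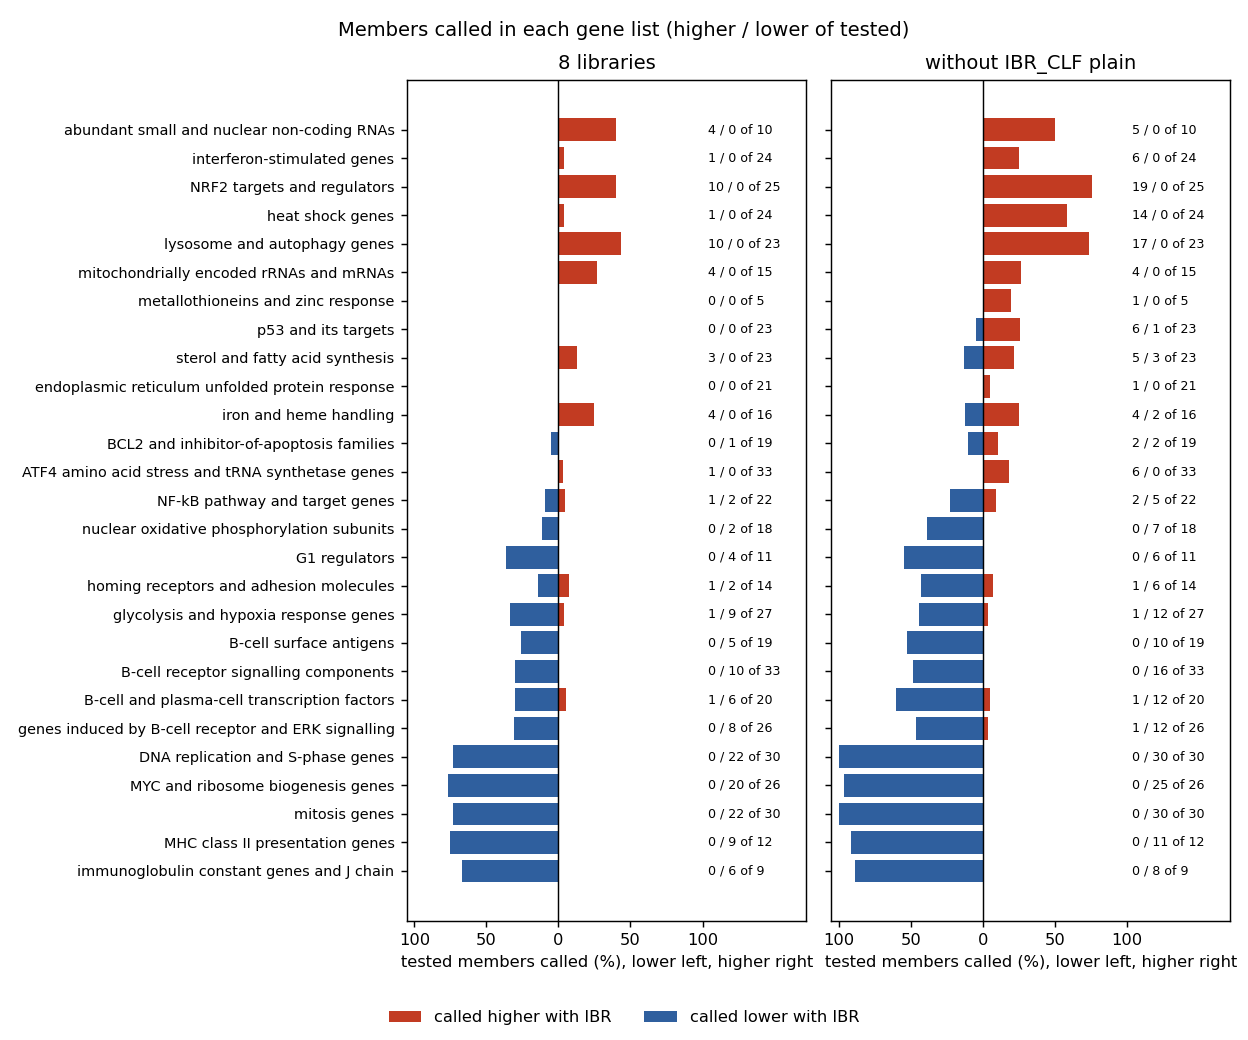
Share of the tested members of 27 gene lists that limma called higher (right, red) or lower (left, blue) with IBR, with the counts at the side, for all 8 libraries and without IBR_CLF plain. Mitosis and S-phase genes go from 22 to 30 of 30 lower, and heat shock genes from 1 to 14 of 24 higher. Over all tested genes 5.46% were higher and 6.46% lower with all 8 libraries, and 12.6% and 16.8% without IBR_CLF plain.

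The study's title names BIRC5 and MCL-1. BIRC5 (survivin), an inhibitor of apoptosis made mainly in mitosis, read 158, 189, 139 and 144 CPM without IBR and 70.2, 44.5, 129 and 36.3 CPM with IBR and fell by 1.32 ± 0.33 (log2, SE; adjusted p = 0.0405). It was the only one of 19 tested BCL2 and inhibitor-of-apoptosis genes to be called (5.26%, against 11.9% of all tested genes). MCL1 read 344, 325, 349 and 462 CPM without IBR and 245, 446, 343 and 444 CPM with IBR; the groups overlapped fully and its difference was -0.03 ± 0.19 (adjusted p = 0.932). BCL2 differed by -0.43, with IBR plain at 72.6 CPM and the other 7 libraries at 199.9 to 252 CPM. BAX and the BH3-only gene BBC3 (PUMA) had differences of 0.52 and 0.85 and passed only without IBR_CLF plain.

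Of 23 sterol synthesis genes 3 were called, all higher: MSMO1 (1.22 ± 0.21 (log2, SE; adjusted p = 0.0292)), CYP51A1 (1.04) and FDFT1 (0.85). Over all tested genes 11.9% were called and 5.46% were called higher. The direction of the sterol list was not steady. Without IBR_CLF plain 5 rose and 3 fell, and with CON and IBR alone 2 rose and 3 fell. The list median was 0.29 with all 8 libraries and -0.08 without IBR_CLF plain and CLF A. For MSMO1 the CLF libraries were already high. Its levels were 34.2, 39.04, 89.4 and 72.6 CPM without IBR and 88.6, 129.8, 156 and 150.4 CPM with IBR. Of 24 interferon-stimulated genes only BST2 (tetherin) was called, at 1.96 ± 0.34 (log2, SE; adjusted p = 0.0292), a share (4.17%) near the 5.46% over all tested genes. Without IBR_CLF plain 6 of the 24 rose and 0 fell, where 12.6% of all tested genes rose. As a list, interferon-stimulated genes still had the second highest median, 1.16. They moved with the suffix as much as with IBR: the list summed to 3694 CPM in CLF A, 4757 in IBR A and 5953 in IBR_CLF A, to 1078 CPM in CON A, and to 432 to 684 CPM in the 4 plain libraries. The suffix was a block in the fit, where its own term called 1508 genes (11.1% of those tested); its part in the interferon differences was not tested beyond that. Of 15 mitochondrially encoded genes 4 rose, the 2 rRNAs MT-RNR1 and MT-RNR2 and MT-ND1 and MT-ND3. MT-RNR2 read 5205, 4172, 3784 and 5448 CPM without IBR and 28632, 15804, 9768 and 18459 CPM with IBR. Of 18 nuclear oxidative phosphorylation genes SDHA and CYC1 fell, by 0.97 and 0.68 (11.1%, against 6.46% of all tested genes called lower). Nuclear non-coding RNAs rose too, in libraries made from poly-A RNA. NEAT1, the scaffold of paraspeckles, read 30.1, 126, 22.6 and 186 CPM without IBR and 247, 991, 129 and 1017 CPM with IBR, rose by 2.72 ± 0.24 (log2, SE; adjusted p = 0.0251) and had the lowest adjusted p of any gene. MALAT1 rose by 2.20 ± 0.40 (log2, SE; adjusted p = 0.0292), and MIAT by 3.24 ± 0.36 (log2, SE; adjusted p = 0.0292). All 3 were also higher in CON A than in CON plain and in CLF A than in CLF plain. The 7SK RNA, listed as 2 overlapping entries whose reads cannot be told apart, rose by 3.61 and 3.43.

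Other large changes lay outside these lists. B4GALNT1, the enzyme that makes the gangliosides GM2 and GD2, read 1.12, 2.68, 1.83 and 6.41 CPM without IBR and 139, 66.7, 9.77 and 78.2 CPM with IBR and rose by 3.90 ± 0.67 (log2, SE; adjusted p = 0.0292). EPHX1, a microsomal epoxide hydrolase, rose by 2.88 ± 0.50 (log2, SE; adjusted p = 0.0292), and ABHD4 by 3.14. On the other side DDN gave the largest fall. It read 41.04, 47.5, 38.9 and 33.3 CPM without IBR and 0.300, 2.16, 12.2 and 2.03 CPM with IBR. The surrogate light chain gene IGLL1, PLD4, HPDL and ITPRIPL1 fell by 3.40, 3.06, 2.98 and 2.92.

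**Figure D4:**
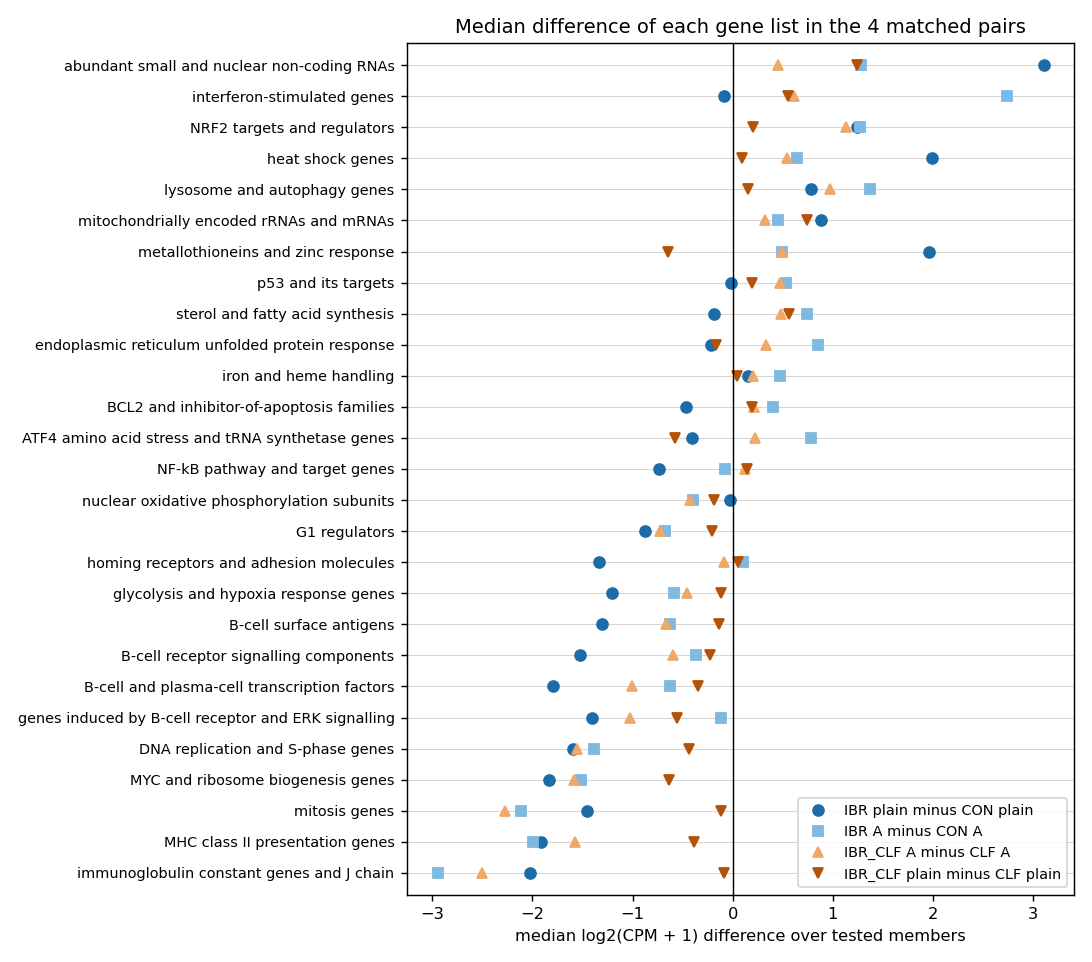
Median log2(CPM + 1) difference over the tested members of each of 27 gene lists in each matched pair (IBR library minus its partner). Brown triangles (IBR_CLF plain minus CLF plain) lie nearest 0 for 17 of the 27 lists, at -0.12 for mitosis genes against -1.45 to -2.28 in the other 3 pairs, and the interferon list reaches 2.74 in IBR A minus CON A but -0.09 in IBR plain minus CON plain.

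Whether CLF changed the response to IBR was asked by an interaction term in the same 8 libraries. It called 0 of 13581 genes in limma (percentage called 0; lowest adjusted p = 1.00), with 246 at an unadjusted p under 0.05. HMOX1 was higher by 7.60 and 7.06 log2 units in the IBR plain and IBR A pairs, by 1.34 in the IBR_CLF plain pair and by 4.79 in the IBR_CLF A pair, for an interaction of -4.27 ± 1.86 (SE; adjusted p = 1.00). MYC differed by -4.20 and -3.40 in the first 2 pairs and by -1.24 and -3.92 in the other 2. For both genes the IBR_CLF plain pair moved the least, and a difference made by CLF was not detectable with these libraries.

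The same contrast was set against JEKO-1, a second mantle cell lymphoma line, with 1 CON, 2 CLF, 3 IBR and 2 IBR_CLF libraries, of which 2 pairs of like-named libraries were averaged to leave 6 samples. Of 14832 genes, 53 (0.357%) were called for a difference in IBR effect between the lines, 36 higher and 17 lower in Z138. Of these, 29 (18 higher and 11 lower) were under 1 CPM in all 8 Z138 libraries and entered the test through JEKO-1, so for them no effect in Z138 was measured and the value restates the change in JEKO-1. The other 24 reached 1 CPM in a Z138 library. The count moved with the scaling. The JEKO-1 IBR libraries had 13.5% to 60.7% mitochondrial reads and its other libraries 1.91% to 4.38%, and the part of this in the differences was not tested. The median difference over all genes was 0.69 as deposited, 0.11 once mitochondrial genes were removed and 0.03 after median-ratio scaling (size factors), and the higher calls became 0 of 19 (0.126% called) and 3 of 30 (0.204%). Called under all 3 scalings were 13 entries, all small non-coding RNAs and all lower in Z138. They are not 13 separate results: 5_8S_rRNA and RNA5-8SN3 had equal values throughout, as did RNU1-2 and RNU1-4. Of the 13 entries, 9 were under 1 CPM in all 8 Z138 libraries. SNORD3A (U3 snoRNA) is one of the other 4: it read 430 to 1406 CPM in the JEKO-1 IBR libraries and 0.803 to 7.06 CPM in its others, but at most 9.54 CPM in Z138, a difference of -7.12 ± 0.92 (adjusted p = 0.00577). No member of the NRF2, lysosome, cell-cycle, MYC or B-cell lists was called for a difference, which does not show that the lines responded alike. MYC in JEKO-1 read 281 to 718 CPM with IBR and 607 to 718 CPM without, and the fitted difference, Z138 minus JEKO-1, was -2.67 ± 0.78 (adjusted p = 0.0840). HMOX1 in JEKO-1 read 113 to 347 CPM with IBR and 9.18 to 75.5 CPM without, and the difference between the lines was 1.91 ± 1.64 (adjusted p = 0.427).

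Z138 libraries outside the comparison give the levels under other agents, with 1 or 2 libraries each and no test. HMOX1 read 241 CPM under YM155, an agent that lowers BIRC5, 22.1 and 189 CPM under the MCL-1 inhibitor S63845, and 1735 CPM under BTZ. MYC read 54.6 CPM under YM155, 739.8 and 616 CPM under S63845 and 145 CPM under BTZ. In the library treated with IBR and YM155 together HMOX1 read 30.1 CPM and MYC 98.1 CPM. Set against the YM155 library, which has another suffix, that library was higher in 255 of the 742 genes called higher above (34.4%, against 51.2% of all tested genes) and lower in 244 of the 877 called lower (27.8%, against 48.5%). The 2 libraries differ in suffix as well as in IBR, and the parts of each cannot be told apart.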

How the data were processed

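Poly-A RNA of cultured cells was sequenced as paired ends. Per the submitters' processing notes, Partek and hg38 were used; aligner, counter, annotation, strand use and filters are not given in the sources used here. The deposited values were log2(CPM + 1): undone, the libraries summed to between 999984 and 1000008.6 CPM. An unnamed entry, at most 0.000773% of a library, was dropped, and log2 values under 1e-06 were set to 0.

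Depth was recovered from the step between low values. Only 86.0% to 89.3% of low values in the 8 libraries came out as whole reads (tolerance 0.05), so no count model was fitted. Intervals and floors cover counting error only.

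All adjusted p-values come from limma (version 3.58.1, R 4.3.3; eBayes with trend, Benjamini-Hochberg) with IBR, CLF and suffix as terms. The fit was also run on simulated counts, drawn independently at a single dispersion. These held no suffix effect and no outlying or near-identical libraries, so the run does not check the adjusted p-values given here. Tested genes reached 1 CPM in 2 of the fitted libraries; the pseudocount was 1. Fold changes are on this scale and understate changes of low genes. The labels give no replicate numbers; the suffix was kept as a block because the A-minus-plain differences of the 4 treatments correlated pairwise at 0.24 to 0.64. The JEKO-1 model added line and line-by-treatment terms.

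Genes were named by a rule: the 12 largest rises and falls with a mean of at least 5 CPM and one sign in all 4 pairs, up to 4 called members per list with the largest changes, BTK, BIRC5 and MCL1, and up to 4 per direction for the line difference. Other list members are given as examples and were chosen after their values were seen. Members and lists were chosen with earlier results of these data known. Genes outside the table were not analysed here. Some genes that the rule names are not reported here. Alternatives changed the block, filter, pseudocount, scaling, libraries, weights and trend.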

Additional observations from a re-analysis of the deposited data

Results flagged for a closer look

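The fitted IBR effect differed between Z138 and JEKO-1 for 8 named entries, 4 in each direction (limma, Benjamini-Hochberg over 14832 genes). For 4 of them, PTPRCAP, CCR2, RN7SL4P and RPPH1, every Z138 library was under 1 CPM, so no effect in Z138 was measured and the value restates the change in JEKO-1. These values were 3.85 for PTPRCAP and 3.71 for CCR2, against a JEKO-1 change of -4.07 and -3.69, and -6.47 for RN7SL4P and -5.13 for RPPH1, against a JEKO-1 change of 6.30 and 5.25. They describe JEKO-1 and no difference in response. With mitochondrial genes left out PTPRCAP and CCR2 stood at 3.14 and 3.36 and did not pass, and CCR2 passed with size factors (3.23, adjusted p = 0.0453), as did RN7SL4P and RPPH1 under both.

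Of the other 4, MPEG1 differed by 4.15 ± 0.56 (log2, SE; adjusted p = 0.00721): it read 202 to 297 CPM without IBR and 1.41 to 7.23 CPM with IBR in JEKO-1, and at most 3.05 CPM in Z138, so here too nearly all of the value is the JEKO-1 change of -5.40. HIBCH, an enzyme of valine breakdown, differed by 3.14 (adjusted p = 0.0449). In Z138 it read 6.87 to 8.66 CPM without IBR and 11.5 to 38.7 CPM with IBR, and in JEKO-1 27.6 to 37.6 CPM without and 4.20 to 22.1 CPM with IBR. With mitochondrial genes left out the differences were 3.46 for MPEG1 and 2.52 for HIBCH (adjusted p = 0.0600 and 0.0821), and with size factors 3.50 and 2.41 (adjusted p = 0.0501 and 0.0953), so neither passed. SNORD3A differed by -7.12 and was called under all 3 scalings. RN7SL1 differed by -4.96 and was called only as deposited, with -5.66 and -5.80 under the other scalings (adjusted p = 0.0720 and 0.0572). RN7SL1 and RN7SL4P are near-identical copies, so the split of their reads is uncertain. The JEKO-1 IBR libraries, where these RNAs were high, also held 13.5% to 60.7% mitochondrial reads. The part of that composition in these differences was not tested.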

How the results depend on the processing

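The 1619 calls for IBR became 0 without the suffix as a replicate block, 0 with no filter, 0 in CLF and IBR_CLF alone, 733 with all 13 Z138 libraries, 6654 with array weights and 0 to 3956 when each library was left out in turn. In settings chosen after seeing the data they became 2751 without IBR_CLF plain and CLF A and 0 without IBR A and IBR_CLF A. The cause was not tested. The other 7 settings gave 1298 to 2280 calls. In every one of these settings each of the 1619 genes that was still tested kept its sign, which is in part fixed by how they were chosen. The 0 calls of the interaction stayed at 0 in every setting run, with 63 to 2136 genes at an unadjusted p under 0.05. The 53 line differences became 2889 with each JEKO-1 library on its own, 20 without the replicate block, 19 with mitochondrial genes left out, 30 with size factors, 6 to 5271 with each sample left out (5271 without the single JEKO-1 CON library, 8 without the first JEKO-1 CLF library, 28 without the averaged JEKO-1 IBR pair), and 19 without Z138 IBR_CLF plain and CLF A. The mitochondrial share differed by 3.43 points in CON and IBR alone and 2.40 points in CLF and IBR_CLF alone, where 2 against 2 cannot go below an exact p of 0.333. With labels exchanged only within the matched pairs (the replicate block, added after seeing the data) it was 2.91 points with an exact p of 0.125, the smallest possible. MCL1 changed sign, at 0.017 with mitochondrial genes left out, 0.014 with array weights and -0.15 to 0.087 with each library left out (positive without CON plain and without IBR plain), and was never called. At these depths genes under about 1 CPM were not tested.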
